A study of Mus musculus with 6 samples.

Results

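The genes described here were 43 effectors and regulators of cell death, taken from the table of RNA-Seq values by their mouse symbols. All 43 were among the 27546 genes of the table, and they comprised 8 caspases, 7 gasdermins, the 3 core necroptosis genes, 17 members of the BCL-2 family, 5 genes of the apoptosome and the inhibitor of apoptosis proteins, 2 genes of the death receptor complex, and Trp53. RNA from the distal colon was sequenced in 3 Gm31629-/- mice and 3 WT littermates, all on the C57BL/6 strain and 8 weeks old. For 7 days both groups drank water with 3% dextran sulfate sodium (DSS), which strips the lining of the colon, and tissue was taken on day 8, so every value comes from injured colon and no untreated mice were included. Gm31629 is a long noncoding RNA, and its sequence on chromosome 1 was deleted in the knockout mice without a driver that limits the loss to a cell type. The level of Gm31629 itself was not analysed here, so the genotype labels could not be checked against it.

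Cells die by several genetically encoded routes. In apoptosis, BH3-only proteins sense damage and release BAX and BAK from the survival proteins of the BCL-2 family, mitochondria then leak cytochrome c, and APAF1 and caspase-9 switch on the executioner caspases, which the inhibitor of apoptosis proteins (IAPs) hold in check. In pyroptosis, inflammatory caspases cut gasdermins, whose freed ends form pores in the plasma membrane. In necroptosis, RIPK3, acting with RIPK1, phosphorylates MLKL, which ruptures the membrane when caspase-8 is inactive. In the colon, shedding of old epithelial cells, damage by DSS, and the defense against bacteria that cross the injured mucosa all draw on these routes.

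Values are FPKM, in which fragment numbers are corrected for exon length and for sequencing depth. They are not corrected for differences in RNA composition between libraries, which limits comparisons between mice, as described below. The deposited values matched a scaling to a depth of 18006000 to 18795100 fragments per library, with no large difference between the groups. Differences are log2 fold changes of Gm31629-/- over WT on the log2(FPKM + 1) scale, which understates the change of low genes, given with their standard error (SE) and with a Benjamini-Hochberg adjusted p from limma over the 14657 genes that averaged 0.5 FPKM or more. Genes were called higher or lower at an adjusted p under 0.05. With 3 mice against 3, an exact permutation test cannot go below 0.1, so single ratios are given without a test.

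The tissue samples differed in composition, which bears on every gene below. Of 15 colon epithelium markers, 8 were lower and 0 higher in limma (1 higher at an unadjusted p under 0.05 and 1 in voom), with sums of 8236 to 9757 FPKM in Gm31629-/- mice against 13270 to 14500 in WT mice, while the defining marker Epcam stood at 990.2 to 1179 FPKM against 1007 to 1164 FPKM (adjusted p = 0.982). Each of 12 smooth muscle markers was higher, with sums of 1456 to 2379 against 24.5 to 46.9 FPKM, as was each of 9 macrophage markers (583.4 to 1286 against 57.8 to 72.8 FPKM), each of 8 neutrophil markers (514.7 to 1032 against 70.5 to 128 FPKM), each of 8 fibroblast markers (203.1 to 567.1 against 17.4 to 37.6 FPKM) and each of 8 endothelial markers (57.3 to 102.6 against 2.45 to 6.91 FPKM). The other epithelial lists moved in both directions. Of 10 goblet cell markers 4 were higher and 3 lower, with sums of 12700 to 18170 FPKM against 5207 to 7004 FPKM, and of 10 markers of absorptive colonocytes 3 were higher and 2 lower (median log2 fold change 0.80), so the 15 markers do not stand for every epithelial cell. In whole tissue, fewer cells of a type and less RNA per cell cannot be told apart. The part of these shifts in the differences below was not tested beyond a fit in which each library was scaled to the 15 epithelial markers. That scaling moved the median log2 fold change of all genes from 0.15 to 0.70, and scaling by the median ratio moved it to 0.01. Of all called genes, 66.5% were higher as deposited, 55.0% with the median ratio and 95.3% on the epithelial scale. The libraries also differed in a further way, since Y-linked transcripts were present in Gm31629-/- mouse 1 and Xist in the other 5 mice, although the methods describe male animals, so calls of the death genes and of the further genes named below that were lost without this mouse are given.

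Of the 43 genes, 40 passed the filter on low values, and 19 of these 40 (47.5%) were called, close to the 43.5% of all tested genes. There were 12 genes higher in Gm31629-/- mice (30.0%, against 28.9% of all tested genes) and 7 lower (17.5%, against 14.6%). The median log2 fold change of the 40 genes was 0.14, that of all tested genes 0.15. The share of death genes that moved was thus near the background, and the description below is of which members moved and how far. At a log2 fold change past 1 there were 8 genes higher (20%, against 18.4%), namely Pmaip1, Casp14, Casp12, Casp4, Xiap, Birc2, Birc3 and Mcl1. The 2 lower past that size were Gsdmc3 and Gsdmc2 (5.0%, against 4.64%). All 3 Gm31629-/- mice lay above all 3 WT mice for 16 genes and below them for 8, together 60.0% of the 40, against 36.3% above, 21.5% below and 57.8% in all among tested genes. The levels spanned a wide range, and in WT mice the highest means were those of Gsdmc4 (260.6 FPKM), Gsdmc2 (171.7), Gsdmd (152.8), Bak1 (81.5), Mcl1 (78.4), Casp1 (66.7), Ripk3 (62.6) and Casp8 (59.4). Replicate WT values of Gsdmc2 (152.1 to 186.8 FPKM) and Gsdmd (149.4 to 157.4) overlapped, so the order of these neighbors is not fixed, and the same holds for Bak1 and Mcl1 and for Casp1, Ripk3 and Casp8.

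**Figure D1:**
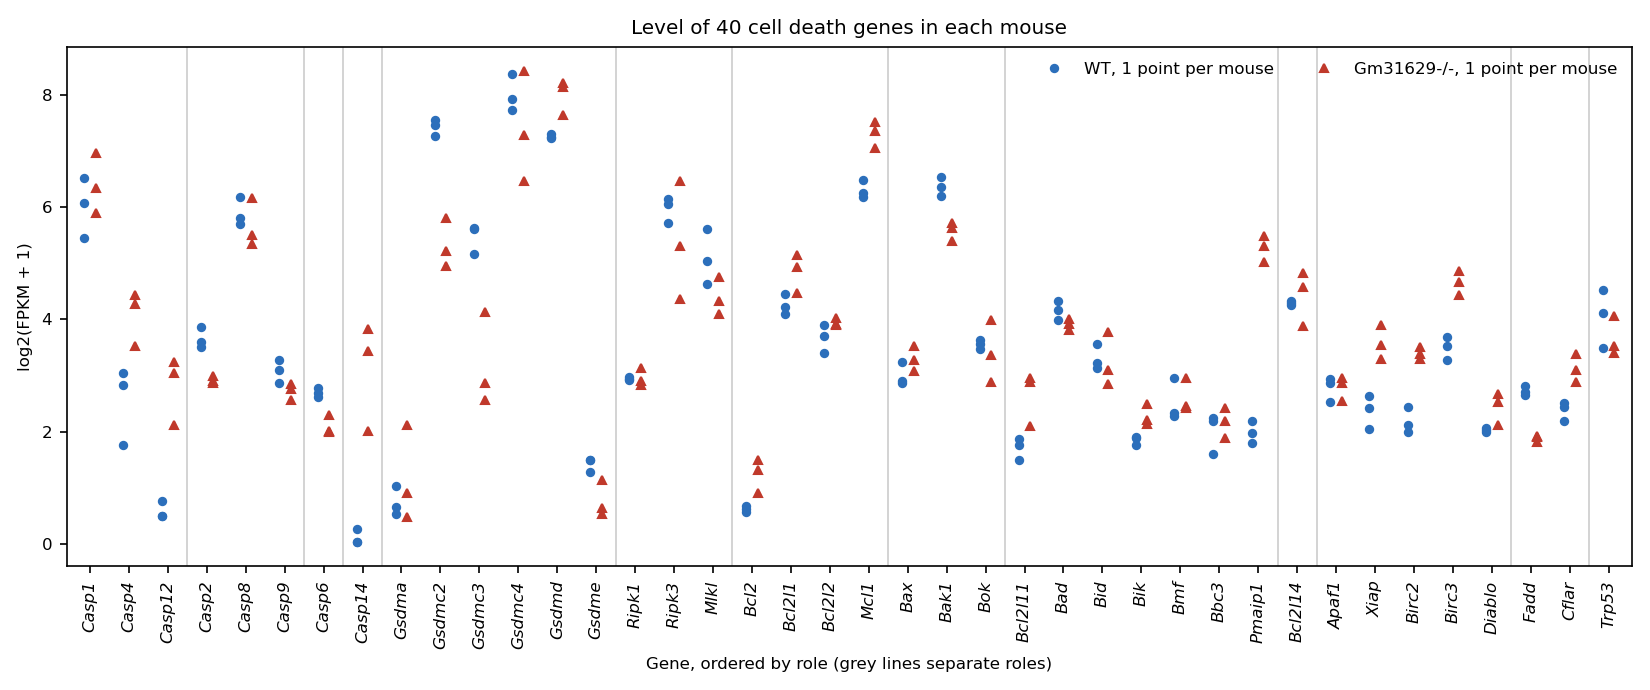
Levels of the 40 tested genes as log2(FPKM + 1), with 1 point per mouse (blue circles, WT, and red triangles, Gm31629-/-) and grey lines between roles. The sets of points are far apart for Pmaip1, Casp12, Casp14 and Gsdmc2, and lie on each other for Ripk1 and Apaf1.

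**Figure D2:**
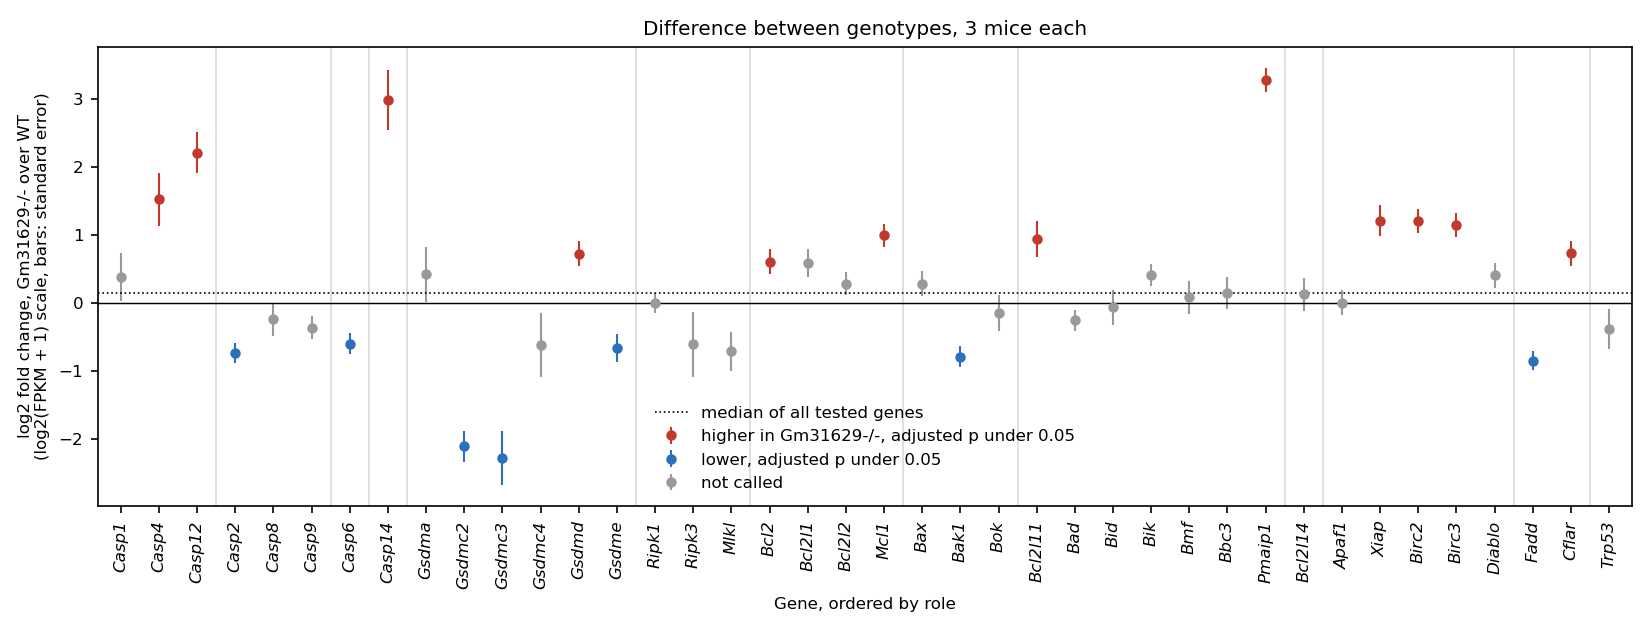
Log2 fold change of each tested gene on the log2(FPKM + 1) scale, with bars for the standard error, colored by call at an adjusted p under 0.05. Of the 40 genes, 12 are higher (red) and 7 lower (blue) in Gm31629-/- mice, and the dotted line marks the median of all tested genes (0.15).

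Among the inflammatory caspases, 2 of 3 were higher in Gm31629-/- mice. Casp4 encodes the mouse caspase that binds bacterial lipopolysaccharide in the cytosol and cuts gasdermin D. It was at 18.3, 20.7 and 10.46 FPKM in Gm31629-/- mice 1 to 3 and at 7.26, 6.14 and 2.39 FPKM in WT mice 1 to 3. Every Gm31629-/- mouse lay above every WT mouse (log2 fold change 1.53, SE 0.38, adjusted p = 0.0173). Casp12, a close relative best known from the response to stress of the endoplasmic reticulum, was low in WT mice (0.70, 0.41 and 0.42 FPKM) and reached 8.42, 7.27 and 3.35 FPKM without Gm31629. Its group means differed 12.5-fold (log2 fold change 2.21, SE 0.30, adjusted p = 0.00171). Casp1, which matures IL-1β and also cuts gasdermin D, was the most abundant of the 3, at 58.8 to 123.2 FPKM in Gm31629-/- mice and 42.6 to 91.1 FPKM in WT mice. The groups overlapped for Casp1, which did not pass the test (log2 fold change 0.39, SE 0.35, adjusted p = 0.394).

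These caspases are neighbors on mouse chromosome 9 (GRCm38, GENCODE M21), with Casp1 at chr9:5298517-5307265, Casp4 at chr9:5308828-5336783 and Casp12 at chr9:5345430-5373032. Their promoters are shown because 2 of the 3 adjacent genes moved in the same direction. Below are the RefSeq windows on GRCm38.p6 for Casp4 (chr9:5308599-5308898, plus strand, the more upstream of its windows) and Casp12 (chr9:5345226-5345525, plus strand), which run from 250 bases before to 50 bases after the start site. Capitals mark the letters of a searched motif, NF-kB (GGGANNNNCC) in Casp4 and STAT (TTCNNNGAA) in Casp12, each sought on both strands. The AP-1 motif (TGANTCA) was sought as well. A further search was made for the TATA box (TATAAA).
Casp4: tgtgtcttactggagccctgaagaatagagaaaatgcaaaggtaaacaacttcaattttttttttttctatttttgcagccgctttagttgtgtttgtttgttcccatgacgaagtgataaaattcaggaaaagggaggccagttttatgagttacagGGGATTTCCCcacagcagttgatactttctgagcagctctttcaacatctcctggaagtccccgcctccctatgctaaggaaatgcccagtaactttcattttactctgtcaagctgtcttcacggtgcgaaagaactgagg
Casp12: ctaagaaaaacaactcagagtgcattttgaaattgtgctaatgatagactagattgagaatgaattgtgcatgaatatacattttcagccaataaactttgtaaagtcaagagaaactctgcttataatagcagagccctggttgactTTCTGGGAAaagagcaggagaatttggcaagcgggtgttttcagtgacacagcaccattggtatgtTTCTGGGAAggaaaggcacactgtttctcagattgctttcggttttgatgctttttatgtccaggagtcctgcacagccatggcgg
The Casp4 window holds an NF-kB match 92 bases before the start, which reads as a match on either strand, and the Casp12 window holds the same STAT match at 102 and at 36 bases before the start. NF-kB letters occurred in 20.7% of all 32851 RefSeq mouse windows and in 12 of the 50 windows of these genes (24.0%), and STAT letters in 8.3% and 4.0%. AP-1 letters were in 0 of the 50 windows, against 7.81% of all windows, and TATA letters in 6.0% against 13.6%. Of the 43 genes, 36 had a window. A match describes the letters only, and binding was not measured.

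The initiator and executioner caspases went the other way or did not pass the test. Casp2, an initiator engaged after genotoxic stress and faulty division, was lower, at 6.50, 6.94 and 6.33 FPKM against 11.1, 13.5 and 10.4 FPKM in WT mice, with no overlap (log2 fold change −0.73, SE 0.15, adjusted p = 0.00834). Casp6, an executioner that cuts lamins, was lower at 3.89, 3.04 and 2.97 FPKM against 5.15, 5.84 and 5.43 FPKM (log2 fold change −0.59, SE 0.16, adjusted p = 0.0208). Both calls were lost with libraries scaled to epithelial markers, where the log2 fold changes were −0.09 for Casp2 and −0.02 for Casp6. The call for Casp6 was also lost without WT mouse 1, 2 or 3. Casp9, the initiator of the apoptosome, had no overlap either, at 4.89 to 6.201 FPKM against 6.28 to 8.67 FPKM, but did not pass the test (log2 fold change −0.36, SE 0.17, adjusted p = 0.128). Casp9 shares 94 exon bases with Cela2a, a pancreatic elastase gene on the opposite strand that stood at 158 FPKM in Gm31629-/- mouse 3 and at or under 0.0314 in the other 5 mice. Casp8, which starts apoptosis at death receptors and restrains necroptosis, overlapped between groups at 39.4 to 70.6 FPKM against 51.2 to 71.9 FPKM (log2 fold change −0.24, SE 0.25, adjusted p = 0.468).

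Casp14 was close to absent in WT mice and present in every Gm31629-/- mouse. It encodes the caspase of the epidermis, where it takes part in the processing of filaggrin rather than in death. It stood at 9.83, 3.06 and 13.3 FPKM in Gm31629-/- mice and at 0.20, 0.02 and 0.02 FPKM in WT mice. In fragments this was 433, 135 and 584 against 9, 1 and 1, so the gene was near the detection limit in every WT mouse (log2 fold change 2.99, SE 0.44, adjusted p = 0.00228). Summed over mice, 1152 fragments stood against 11, a ratio of 105 (95% exact conditional interval 58.4 to 211, which covers counting error only and compares these libraries). Markers of squamous epithelium, the lining of the anal canal at the end of the colon, were looked at beside it. Of 14 such genes 12 were listed, and 6 of these (Krt5, Krt14, Lor, Sbsn, Dsg3 and Trp63) lay higher in every Gm31629-/- mouse than in any WT mouse. Among all tested genes 36.3% did so, but 10 of the 12 listed genes fell under the filter on low values, so these shares are not alike. Krt5, for example, had 2, 6 and 5 fragments in Gm31629-/- mice against 0 in each WT mouse. Of the 2 that passed the filter, Krt14 was higher (1.42, 1.97 and 0.53 FPKM against 0.06, 0.28 and 0.24), a call that held in 1 of the 6 fits that left out a mouse and was lost without Gm31629-/- mouse 1 (adjusted p = 0.0599). Of the listed genes, Krt1, Krt4 and Trp63 stayed under 0.1 FPKM in all 6 mice, and Trp63 was also 1 of the 6 that lay higher. The summed level of the list was 4.004, 6.17 and 2.37 FPKM in Gm31629-/- mice 1 to 3, the reverse of the order of these mice for Casp14. Its part in the Casp14 values was not tested. In WT mice the sum of the squamous list was 1.12 to 1.26 FPKM.

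The gasdermins, the pore formers of pyroptosis, did not share a direction. Of 7 genes, 6 were tested, 1 was higher and 3 were lower. Gsdmd, the substrate of the inflammatory caspases, was at 197.6, 281.9 and 295.7 FPKM in Gm31629-/- mice and at 149.4, 157.4 and 151.7 FPKM in WT mice. The groups did not overlap (log2 fold change 0.73, SE 0.19, adjusted p = 0.0179), although the call was lost without WT mouse 1 or WT mouse 3 and with libraries scaled by their median ratio (0.56, adjusted p = 0.0595). Gsdme, another pore former that caspases cut, was near 1 FPKM and lower at 1.21, 0.57 and 0.44 FPKM against 1.44, 1.82 and 1.83 FPKM (log2 fold change −0.65, SE 0.20, adjusted p = 0.0366). That call held without Gm31629-/- mouse 1 and was lost without any of the other 5 mice and with epithelial scaling (−0.29, adjusted p = 0.312). Gsdma, known from skin, varied 0.40, 3.34 and 0.88 FPKM among Gm31629-/- mice and overlapped with WT mice at 0.45 to 1.05 FPKM (log2 fold change 0.43, SE 0.41, adjusted p = 0.42).

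The Gsdmc cluster, whose genes are expressed in the intestinal epithelium, held the largest falls. Gsdmc2 was at 29.9, 36.2 and 54.8 FPKM in Gm31629-/- mice and at 186.8, 176.3 and 152.1 FPKM in WT mice, so that its WT mean was 4.26 times the Gm31629-/- mean (log2 fold change −2.11, SE 0.23, adjusted p = 0.000817). Gsdmc3 was at 6.33, 4.91 and 16.5 FPKM against 47.7, 48.7 and 34.7 FPKM, a 4.72-fold difference between means (log2 fold change −2.28, SE 0.39, adjusted p = 0.00428). Both stayed lower with libraries scaled to the epithelial markers, at −1.40 (adjusted p = 0.00162) and −1.61 (adjusted p = 0.00567), and were called without each mouse in turn. Of the 7 lower genes they were the only ones called lower under that scaling. Gsdmc4, the most abundant of the cluster, varied widely among Gm31629-/- mice at 87.1, 155.0 and 344.1 FPKM and stood at 330.6, 240.6 and 210.8 FPKM in WT mice. It did not pass the test (log2 fold change −0.61, SE 0.47, adjusted p = 0.317), and mouse 3 decided this, since without Gm31629-/- mouse 3 the log2 fold change was −1.13 (adjusted p = 0.0354). Gsdmc itself was at 0 or 1 fragment in each mouse, below the filter.

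Within each mouse, the balance inside the cluster was also different. The ratio of Gsdmc4 to Gsdmc2 was 2.92, 4.28 and 6.28 in Gm31629-/- mice and 1.77, 1.36 and 1.39 in WT mice, and that of Gsdmc4 to Gsdmc3 was 13.8, 31.6 and 20.8 against 6.93, 4.94 and 6.08. Neither ratio overlapped between the groups, and neither depends on the depth or the scaling of a library. The ratio of Gsdmc2 to Gsdmc3 did overlap, at 3.31 to 7.37 against 3.62 to 4.38. The cluster lies on chromosome 15, with Gsdmc at chr15:63775968-63808759, Gsdmc2 at chr15:63824346-63845177, Gsdmc3 at chr15:63857724-63878558 and Gsdmc4 at chr15:63891264-63912297, while Gsdmd stands apart at chr15:75862327-75867408. Its members are close copies, with 97.4% identity over 1637 bases between the transcripts of Gsdmc2 and Gsdmc3 and 92.6% over 2011 bases between those of Gsdmc3 and Gsdmc4. How the counting treated fragments that match several genes is not given in the sources used here, and the split of fragments between these genes is uncertain to that extent. The RefSeq promoter window of Gsdmc3 (GRCm38.p6, chr15:63878509-63878808, minus strand, written in the direction of the gene) is shown as the gene of the cluster with the largest fall. It holds no match to the letters of the 4 searched motifs, so no letters are in capitals. The search took TATAAA only for the TATA box. The window reads tatataagg near its end, a spelling that was not searched, so the lack of a match does not show that a TATA box is absent.
Gsdmc3: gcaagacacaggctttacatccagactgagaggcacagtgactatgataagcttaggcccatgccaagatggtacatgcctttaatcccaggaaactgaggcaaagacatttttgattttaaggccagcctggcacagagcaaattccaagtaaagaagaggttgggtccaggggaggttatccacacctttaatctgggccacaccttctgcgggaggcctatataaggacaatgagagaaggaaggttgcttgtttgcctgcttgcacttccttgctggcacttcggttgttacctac

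**Figure D3:**
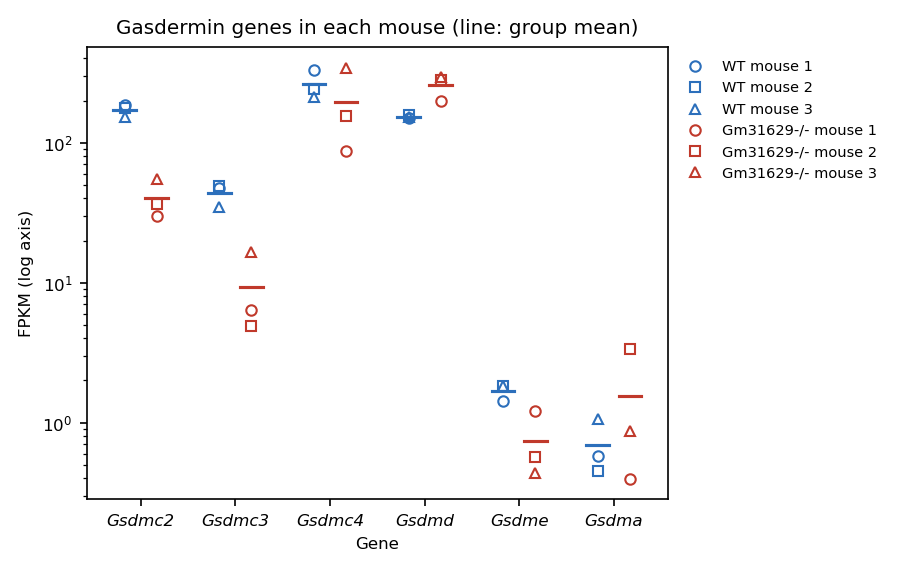
FPKM of 6 gasdermin genes on a log axis, with 1 symbol per mouse (blue, WT, and red, Gm31629-/-) and a line at each group mean. Gsdmc2 and Gsdmc3 are apart between the groups, Gsdmd is higher without overlap, and the Gsdmc4 values of Gm31629-/- mice spread from 87.1 to 344.1 FPKM around those of WT mice.

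Of the 3 core necroptosis genes, 0 were called in limma, and 1, Mlkl, had an unadjusted p under 0.05 (0 were called in voom). Ripk1, the kinase at the death receptor that can signal survival or death, stood at 6.13 to 7.77 FPKM in Gm31629-/- mice and 6.62 to 6.88 FPKM in WT mice (log2 fold change 0.00, SE 0.15, adjusted p = 0.982). Ripk1 shares 241 exon bases with Serpinb6a on the opposite strand, a gene at 46.7 to 88.5 FPKM in these mice, whose part in the Ripk1 values was not tested. Ripk3, the kinase that activates MLKL, varied from mouse to mouse in the absence of Gm31629, at 19.6, 87.5 and 38.8 FPKM, against 65.8, 70.1 and 51.9 FPKM in WT mice. Its difference did not pass the test (log2 fold change −0.60, SE 0.48, adjusted p = 0.34), whereas without Gm31629-/- mouse 2 it was −1.14 (adjusted p = 0.0269). Mlkl, the executioner, was at 19.1, 25.9 and 16.0 FPKM against 48.1, 23.8 and 32.0 FPKM (log2 fold change −0.71, SE 0.28, adjusted p = 0.080), and passed the threshold without WT mouse 2 (−0.94, adjusted p = 0.0437) and with median ratio scaling (−0.87, adjusted p = 0.0367). The direction of Ripk3 turned with libraries scaled to epithelial markers (0.10), and that of Ripk1 with median ratio scaling (−0.15), neither of them called.

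On the log2(FPKM + 1) scale, the largest difference among the 40 tested death genes was that of Pmaip1, whereas with a pseudocount of 0.1 Casp14 was ahead (5.50 against 3.63). Pmaip1 encodes NOXA, a BH3-only protein that binds MCL1 and is induced by p53 and by cell stress. It was at 31.6, 43.6 and 38.7 FPKM in Gm31629-/- mice and at 2.92, 3.55 and 2.49 FPKM in WT mice. The lowest Gm31629-/- mouse was far above the highest WT mouse, and the group means differed 12.7-fold (log2 fold change 3.28, SE 0.18, adjusted p = 0.000113). Across the fits that left out a mouse, its log2 fold change stayed between 3.18 and 3.41. Mcl1, the survival protein that NOXA binds, was the most abundant survival gene and was higher too, at 132.4, 181.0 and 162.5 FPKM against 75.6, 87.9 and 71.7 FPKM (log2 fold change 1.00, SE 0.17, adjusted p = 0.00385).

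The 4 survival genes each lay higher in every Gm31629-/- mouse than in any WT mouse, but 2 of them passed the test, Mcl1 and Bcl2. Among all tested genes, 36.3% lay higher in this way and 28.9% were called higher. Bcl2, the founder of the family, was scarce at 1.82, 1.503 and 0.87 FPKM against 0.59, 0.49 and 0.55 FPKM (log2 fold change 0.61, SE 0.19, adjusted p = 0.0357), and its call was lost without Gm31629-/- mouse 1, the mouse with Y-linked transcripts (0.49, adjusted p = 0.0725), and in 4 of the other 5 fits that left out a mouse. Bcl2l1, the gene of BCL-XL, was at 21.04, 34.3 and 29.6 FPKM against 16.2, 20.9 and 17.6 FPKM and stayed just outside the threshold (log2 fold change 0.59, SE 0.21, adjusted p = 0.054), which it passed without Gm31629-/- mouse 1 (0.78, adjusted p = 0.0129). Bcl2l2, the gene of BCL-W, was at 14.0 to 15.2 FPKM against 9.51 to 13.9 FPKM (log2 fold change 0.29, SE 0.17, adjusted p = 0.195). Summed over the 4 genes, the level was 169.3 to 232.1 FPKM in Gm31629-/- mice and 101.8 to 123.2 FPKM in WT mice.

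Of the 3 pore formers of the mitochondrial outer membrane, 1 was lower. Bak1 was the most abundant of them, at 48.2, 51.6 and 40.9 FPKM in Gm31629-/- mice and at 91.3, 72.0 and 81.2 FPKM in WT mice, without overlap (log2 fold change −0.78, SE 0.16, adjusted p = 0.00736). With epithelial scaling the difference was −0.08 (adjusted p = 0.757). Bak1 shares 25.5% of its exon bases with Ggnbp1 on the opposite strand, a gene at 0.20 to 0.70 FPKM in these mice. Bax, which acts beside BAK, overlapped at 7.41 to 10.5 FPKM against 6.28 to 8.47 FPKM (log2 fold change 0.29, SE 0.18, adjusted p = 0.235), as did Bok, a relative that can act without BH3-only proteins, at 6.38 to 14.8 FPKM against 10.1 to 11.3 FPKM (log2 fold change −0.14, SE 0.27, adjusted p = 0.692).

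Among the 8 BH3-only genes, 7 were tested and 2 were higher, Pmaip1 and Bcl2l11. Bcl2l11 encodes BIM, which is raised when growth factors or cytokines are withdrawn and which binds all survival proteins. It was at 6.78, 6.43 and 3.28 FPKM against 1.81, 2.65 and 2.40 FPKM in WT mice (log2 fold change 0.94, SE 0.26, adjusted p = 0.0245), and its call was lost without Gm31629-/- mouse 1 (0.79, adjusted p = 0.0593), and in 4 of the other 5 fits that left out a mouse. Bik lay higher in all 3 Gm31629-/- mice, at 3.40 to 4.62 FPKM against 2.41 to 2.77 FPKM, short of the threshold (log2 fold change 0.42, SE 0.16, adjusted p = 0.0737). Bbc3, the gene of PUMA and like Pmaip1 a target of p53, overlapped at 2.68 to 4.35 FPKM against 2.04 to 3.71 FPKM (log2 fold change 0.16, SE 0.24, adjusted p = 0.618). Bad, Bid and Bmf, which respond to growth factor signals, to cleavage by caspase-8 and to loss of attachment, overlapped between the groups, with log2 fold changes of −0.25 (adjusted p = 0.206), −0.06 (0.87) and 0.09 (0.796). Hrk, a BH3-only gene of neurons, fell under the filter, since its fragments numbered 3, 1 and 0 in Gm31629-/- mice and 0 in each WT mouse, which allows up to 0.0281 to 0.0293 FPKM there. Of the remaining relatives, Bcl2l14 overlapped at 13.8 to 27.3 FPKM against 18.2 to 19.1 FPKM (log2 fold change 0.13, SE 0.24, adjusted p = 0.68), and Bcl2l15 was below the filter with 5, 7 and 4 fragments against 0, 0 and 5.

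The 3 IAP genes of the set were all called higher, with log2 fold changes of 1.15 to 1.22. Among all tested genes, 28.9% were called higher, and 18.4% were so past a log2 fold change of 1. Relatives outside the set did not share the direction. Birc5 was lower (log2 fold change −1.16, adjusted p = 0.0461), and Birc6 was not called (−0.25, adjusted p = 0.263). XIAP blocks caspases directly, whereas the products of Birc2 and Birc3 are ubiquitin ligases that keep RIPK1 in its survival state and act in NF-kB signaling. Xiap was at 14.0, 10.6 and 8.84 FPKM against 5.18, 4.35 and 3.12 FPKM (log2 fold change 1.22, SE 0.22, adjusted p = 0.00548). Birc2 was at 10.4, 9.49 and 8.80 FPKM against 4.41, 3.37 and 2.96 FPKM (log2 fold change 1.21, SE 0.17, adjusted p = 0.00198). Birc3 was the most abundant, at 20.5, 27.9 and 24.4 FPKM against 10.5, 11.9 and 8.65 FPKM (log2 fold change 1.15, SE 0.18, adjusted p = 0.00269). In each of these genes the lowest Gm31629-/- mouse lay above the highest WT mouse, and each was called without each mouse in turn. Diablo, whose protein is released from mitochondria to counter the IAPs, lay higher without overlap, at 3.34 to 5.40 FPKM against 2.97 to 3.17 FPKM, but did not pass the test (log2 fold change 0.41, SE 0.19, adjusted p = 0.112), except without Gm31629-/- mouse 3 (0.57, adjusted p = 0.0322). Apaf1, the scaffold of the apoptosome, did not differ detectably, at 4.87 to 6.80 FPKM against 4.79 to 6.65 FPKM (log2 fold change 0.01, SE 0.19, adjusted p = 0.964).

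Birc2 and Birc3 lie side by side on chromosome 9, at chr9:7818227-7837064 and chr9:7848699-7873186, on the same chromosome as Casp4 and Casp12. Their transcripts align over 1357 bases at 77.3% identity, far less than within the Gsdmc cluster. The Birc3 window (RefSeq, GRCm38.p6, chr9:7873121-7873420, minus strand, written in the direction of the gene) is shown as that of the most abundant IAP gene, with its NF-kB letters in capitals, 57 bases before the start.
Birc3: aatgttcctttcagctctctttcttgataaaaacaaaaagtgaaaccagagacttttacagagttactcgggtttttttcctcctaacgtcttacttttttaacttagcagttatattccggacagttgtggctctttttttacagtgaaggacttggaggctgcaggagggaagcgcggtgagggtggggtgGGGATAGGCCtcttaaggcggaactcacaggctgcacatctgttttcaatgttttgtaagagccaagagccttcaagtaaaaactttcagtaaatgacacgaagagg

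At the death receptor the adaptor and its brake went opposite ways. Fadd, which links death receptors to caspase-8, was at 2.51, 2.76 and 2.82 FPKM in Gm31629-/- mice and at 5.55, 5.32 and 6.01 FPKM in WT mice, with a small spread in both groups (log2 fold change −0.84, SE 0.14, adjusted p = 0.00402). It was called without each mouse in turn, but not with epithelial scaling (−0.28, adjusted p = 0.253). Cflar, the gene of c-FLIP, which competes with caspase-8 at FADD, was higher at 7.53, 9.41 and 6.42 FPKM against 4.45, 4.72 and 3.57 FPKM (log2 fold change 0.74, SE 0.18, adjusted p = 0.0169), and its call was lost without WT mouse 3. Cflar and Casp8 are near each other on chromosome 1 (chr1:58711508-58758884 and chr1:58795374-58847503), and Casp8 was not called. Trp53 overlapped between the groups at 9.58 to 15.6 FPKM against 10.3 to 21.9 FPKM (log2 fold change −0.38, SE 0.29, adjusted p = 0.325).

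With libraries scaled to the epithelial markers, the 12 genes called higher were all called higher as well. Of the 7 lower genes, 5 were no longer called, namely Bak1, Casp2, Casp6, Fadd and Gsdme. That scaling moved the median log2 fold change of all genes from 0.15 to 0.70, which favors higher calls and works against lower ones. The kept higher calls and the lost lower calls follow this shift and are no separate test of either direction. Gsdmc2 and Gsdmc3 stayed lower against the shift. With that scaling 23 of the genes were higher and 2 lower, against 54.2% and 2.68% of all tested genes.

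**Figure D4:**
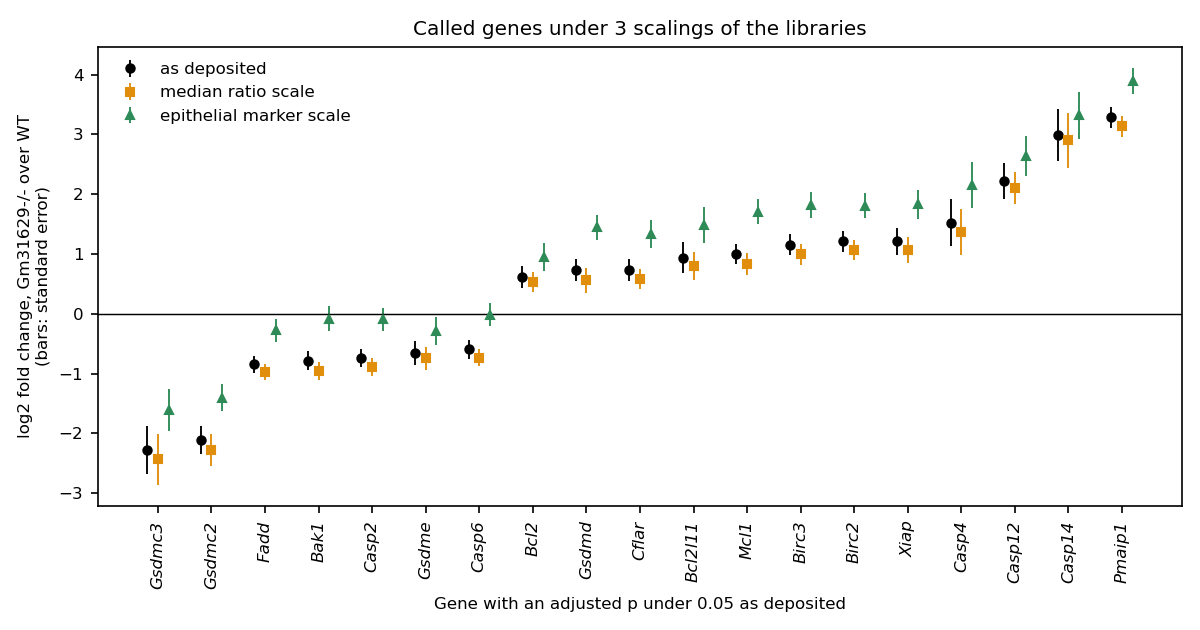
Log2 fold change with standard error of the 19 called genes with libraries as deposited (black), scaled by the median ratio (orange) and scaled to 15 epithelial marker genes (green). The 12 genes to the right are above 0 under all 3 scalings, and Gsdmc2 and Gsdmc3 stay below −1. Bak1, Casp2 and Casp6 lie close to 0 on the epithelial scale, which raised the values of all 19 genes.

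Other genes of the same pathways, 68 in all and 64 tested, were set beside them. There were 17 higher and 9 lower, beside the 28.9% and 14.6% of all tested genes. Of 15 inflammasome sensors, adaptors and substrates, 5 were higher and 2 lower. Il1b, the cytokine that caspase-1 matures, was higher at 16.7, 124.7 and 37.6 FPKM against 5.75, 5.18 and 5.52 FPKM (log2 fold change 2.77, SE 0.63, adjusted p = 0.0117). Mefv, the gene of the sensor pyrin, was higher with a log2 fold change of 1.99 (adjusted p = 0.00654), and so was Nek7, a partner of NLRP3, with 1.77 (adjusted p = 0.00226). Pycard, the adaptor ASC that joins sensors to caspase-1, was among the lower genes, at 4.36, 2.62 and 4.66 FPKM against 14.7, 13.3 and 14.1 FPKM (log2 fold change −1.65, SE 0.20, adjusted p = 0.00117). Of the 9 lower further genes it was the only 1 called with epithelial scaling (−1.03, adjusted p = 0.00366). Macrophages and neutrophils are known sources of Il1b and Mefv, and the summed markers of both were higher in each Gm31629-/- mouse, as given above, with a part in these values that was not tested.

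Of 8 death receptor and adaptor genes, 7 were tested and 1 was higher, Ngfr, the p75 neurotrophin receptor, at 6.43, 8.82 and 3.03 FPKM against 0.02, 0.03 and 0.03 FPKM (log2 fold change 2.70, SE 0.32, adjusted p = 0.00102). Ngfr is also a gene of glia, and 10 of 12 enteric neuron and glia markers were higher, with sums of 53.7 to 187.8 FPKM against 4.48 to 6.63 FPKM, whose part in this value was not tested. Of 9 necroptosis regulators, Tnfaip3, the ubiquitin editor A20, was higher (log2 fold change 1.17, adjusted p = 0.0103), while Ticam1, the adaptor TRIF, and Rnf31, a ligase that adds linear ubiquitin chains, were lower, each at −0.53 (adjusted p = 0.031 and 0.0467). Of the 6 fits that left out a mouse, Ticam1 was called in 2, those without Gm31629-/- mouse 1 or 3 (adjusted p up to 0.10 in the others), and Rnf31 in 1, that without WT mouse 2 (up to 0.149, and 0.108 without Gm31629-/- mouse 1). With epithelial scaling both turned to the other direction (0.16 and 0.15) and were not called. Of 10 genes of mitochondrial release and DNA cutting, 0 were higher in limma (0 at an unadjusted p under 0.05 and 0 in voom) and 3 were lower, namely Aifm1 (−0.82, adjusted p = 0.00601), Dffa (−0.77, adjusted p = 0.0114) and Dffb (−0.47, adjusted p = 0.038). Dffb was called in 0 of the 6 fits that left out a mouse (adjusted p 0.0512 to 0.124, the lowest without Gm31629-/- mouse 1), and Dffa was not called without WT mouse 3 (0.0549). With epithelial scaling, Aifm1 (−0.18), Dffa (−0.14) and Dffb (0.03) were not called.

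Of 10 further relatives of the BCL-2 and IAP families, 8 were tested, with Bcl2a1a (log2 fold change 1.82, adjusted p = 0.0143), Bcl2a1d (1.48, adjusted p = 0.0118) and Bnip3 (1.24, adjusted p = 0.00404) higher. Without WT mouse 3, Bcl2a1a (adjusted p = 0.0604) and Bcl2a1d (0.051) were not called, nor was Bcl2a1a without WT mouse 1. Birc5, the gene of survivin, which serves in cell division, was lower at 1.09, 4.92 and 1.65 FPKM against 6.40, 4.72 and 7.66 FPKM (log2 fold change −1.16, SE 0.39, adjusted p = 0.0461). Gm31629-/- mouse 2 lay within the range of WT mice, and the call held in 1 of the 6 fits that left out a mouse, that without this mouse (adjusted p = 0.00393, against 0.106 without Gm31629-/- mouse 1). Of 16 p53 targets, 15 were tested, 7 were higher, 1 lower and 7 not called, beside 28.9% higher and 14.6% lower among all tested genes. The largest differences were those of Phlda3 (log2 fold change 2.26, adjusted p = 0.00197), Trp53inp1 (2.04, adjusted p = 0.0109) and Plk2 (1.76, adjusted p = 0.00445), and Sesn2 was lower (−0.62, adjusted p = 0.0469). The call of Sesn2 held in 1 of the 6 fits that left out a mouse, that without WT mouse 1 (adjusted p up to 0.15 in the others, and 0.0981 without Gm31629-/- mouse 1), and with epithelial scaling its difference was 0.00. Cdkn1a, the cell cycle inhibitor often used to read p53 activity, stood at 130.8 to 184.0 FPKM against 142.1 to 172.5 FPKM (log2 fold change 0.02, SE 0.17, adjusted p = 0.922), alongside the higher Pmaip1 and the uncalled Bbc3 and Trp53. Mdm2, among the 7 higher targets, was at 8.19 to 12.45 FPKM against 4.78 to 5.52 FPKM (log2 fold change 0.93, SE 0.19, adjusted p = 0.00737). It was called without each mouse in turn. The activity of p53 was not tested.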

How the data were processed

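RNA-Seq libraries from distal colon of 3 Gm31629-/- and 3 WT mice were grouped and numbered by their labels. The authors deposited FPKM values for 27546 genes, in 1 column per library, and their processing notes name HISAT2 2.1.0, HTSeq 0.6.0 and GRCm38, whereas the annotation release and the use of strand in counting are not given in the sources used here. The methods describe total RNA pooled from 3 mice per group, while the table holds 1 value per library, and the libraries were treated as separate mice. If they share pooled RNA, p-values measure technical spread. The 4 Y-linked genes looked at were at 2.03 to 15.4 FPKM in Gm31629-/- mouse 1 and at 0 in Gm31629-/- mice 2 and 3. The Gm31629-/- libraries were therefore not all portions of the same RNA. Whether the other libraries share RNA was not tested. The study named DEGseq, a count test that could not be fitted to FPKM.

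Symbols, positions and exon lengths came from GENCODE M21 (27488 identifiers matched). Depth was recovered from the size of 1 fragment, and of the values worth up to 20 fragments, 96.3% to 97.2% came out within 0.1 of a whole fragment. Fragments summed over genes exceeded this depth in each library, so it describes the scaling of the values and was not shown to be the number of mapped fragments. Intervals and limits (3 fragments for a value of 0) cover counting error only.

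Genes averaging 0.5 FPKM or more over the mice were fitted on log2(FPKM + 1) with limma 3.58.1 (lmFit, eBayes with trend, R 4.3.3), with Benjamini-Hochberg adjustment over 14657 genes. Scripts were tested on simulated data. Members and lists were chosen with earlier results of these data known. All 43 genes were accounted for, with values per mouse for called genes, and the 3 largest called genes at most were named per further list. Cela2a, Ggnbp1, Gpr137, Bcl2l13, Serpinb6a, Epcam, Birc6, Cdkn1a and Mdm2 were named after their values were seen. Alternatives were a pseudocount of 0.1, no filter, TPM scale, median ratio scale, scaling to 15 epithelial markers, eBayes without a trend, voom on recovered fragments, the replicate number as a block, and leaving out each mouse. Transcripts were compared with BLASTN 2.17.0, and figures drawn with matplotlib 3.10.9.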

Additional observations from a re-analysis of the deposited data

How the results depend on the processing

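All 19 calls were kept with a pseudocount of 0.1, on the TPM scale, in eBayes without a trend and in voom on recovered fragments. Without a filter Bcl2 (adjusted p = 0.0681) and Gsdme (0.0775) were not called. Leaving out each mouse in turn gave 8 to 13 higher and 5 to 7 lower members (7 to 8 and 2 to 3 past a log2 fold change of 1) and 12 to 19 higher and 3 to 6 lower further genes. The 9 lower further genes became 5 without a filter, 5 on the TPM scale, 14 with the median ratio scale, 1 with the epithelial scale and 4 with the replicate block. The 2 members lower past a log2 fold change of 1 became 4 with a pseudocount of 0.1 and 4 in voom, where Fadd and Gsdme joined. On the epithelial scale, 23 members were higher, 13 of them past a log2 fold change of 1, and 2 were lower, with 37 higher further genes. The causes were not tested beyond the values of the epithelial markers.

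The log2 fold changes of some uncalled genes changed sign and stayed uncalled. On the epithelial scale these were Casp8 (0.47), Casp9 (0.26), Gsdmc4 (0.10), Ripk3 (0.10), Bok (0.51), Bad (0.42), Bid (0.58) and Trp53 (0.29), and with the median ratio Ripk1 (−0.15), Bmf (−0.057), Bcl2l14 (−0.0301) and Apaf1 (−0.14). Over the fits that left out a mouse, the values ran from −0.43 to 0.12 for Bok, −0.0848 to 0.30 for Bmf, −0.11 to 0.13 for Apaf1, −0.0458 to 0.77 for Gsdma, −0.0839 to 0.0655 for Ripk1, −0.33 to 0.14 for Bid, −0.065 to 0.40 for Bcl2l14 and −0.0469 to 0.30 for Bbc3.

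Groups share replicate numbers, but deviations of same-numbered mice correlated at 0.04, −0.11 and 0.01, so the numbers were not taken as pairs. With the replicate number as a block, 16 of the 19 calls were kept, Bcl2 (adjusted p = 0.064), Casp6 (0.0559) and Gsdme (0.0792) were not called, and Bcl2l1 was (0.041). Depth limits Hrk, Gsdmc, Bcl2l15 and the WT level of Casp14.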
